A study of Mus musculus with 7 samples.

Results

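The 10 integrin chain genes described here, Itgae, Itgb7, Itga4, Itgb1, Itgal, Itgb2, Itgav, Itgb3, Itga6 and Itga1, were chosen by name, and together they have 28 of the 45037 probe sets on the array, counting those whose annotation names only one of them. They are 10 of 18193 genes represented. An integrin is a surface receptor made of an alpha and a beta chain, and neither chain reaches the membrane in quantity without a partner. The partners set what a T cell can hold on to. αEβ7 binds E-cadherin on epithelium, α4β7 binds Madcam1 on gut venules, α4β1 binds Vcam1 and fibronectin, αLβ2 (LFA-1) binds ICAM proteins on other cells, α6β1 binds laminin, α1β1 binds collagen, and the αV integrins bind vitronectin and latent TGF-beta.

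CD4+ T cells were measured on 7 Affymetrix arrays. Sf.Il2-/- mice (3 arrays) are scurfy mice that also carry a null Il2 allele (B6.129P2-Il2tm1Hor/J), and so lack the T cell growth factor IL-2. Sf mice (3 arrays, B6.Cg-Foxp3sf/J) carry the scurfy mutation of Foxp3, the transcription factor of regulatory T cells, which the Sf.Il2-/- mice carry too. B6 mice (1 array, C57BL/6) are the wild type, and that array holds RNA pooled from 2 mice. All mice were male and 3 weeks old. The cells came from peripheral lymph nodes of the armpit (axillary and brachial), groin (inguinal), neck (cervical) and face. Antibodies to CD8, B220, NK1.1, CD11c and CD11b took out other cells, and sorting on CD3 and CD4 followed. Both alleles are present in every cell of the mouse and not in T cells alone.

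Values are the authors' linear intensities, taken as log2(intensity + 1), so a difference of 1 is a doubling, and a value under 5 is dim. Each gene is given at its brightest probe set, and the others follow. Precision is set by how few arrays there are, and B6 has no spread of its own. Median intensities lay between 29.3 and 32.4. The CD4 T cell markers found on the array (5 of 6: Cd3d, Cd3e, Cd3g, Cd4 and Cd5) read 9.44 or more in every array. Sf 3 stood apart from the other Sf arrays, being the Sf array nearest to B6 at 62.4% of the 11460 genes tested and at 7 of the 10 integrin genes, so results that rest on it are also given without it. Il2 itself read 7.17, 8.20 and 7.74 in Sf.Il2-/-, 5.39, 5.09 and 7.35 in Sf, and 5.22 in B6. The sources used here do not place its probes against the disruption, so this does not check the genotype.

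Upstream sequence is shown for Itga4 and both of its partners, because α4β7 and α4β1 share an alpha chain while their beta chains lay on opposite sides of B6, Itgb7 lower and Itgb1 higher in every mutant array. These are the 250 bases before the RefSeq start, 5′ to 3′ on the gene's strand. Capitals mark the letters TGTGGT (Runx factors), TTCNNNGAA (STAT factors) or GGGCGG (Sp factors), searched on both strands, and the matches do not overlap each other.
Itga4 (GRCm38.p6, chr2:79255176-79255425, plus strand): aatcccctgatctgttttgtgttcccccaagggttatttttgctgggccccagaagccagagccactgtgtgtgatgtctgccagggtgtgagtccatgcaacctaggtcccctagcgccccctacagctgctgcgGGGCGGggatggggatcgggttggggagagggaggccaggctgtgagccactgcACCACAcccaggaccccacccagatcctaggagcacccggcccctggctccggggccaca
Itgb7 (GRCm38.p6, chr15:102231936-102232185, minus strand): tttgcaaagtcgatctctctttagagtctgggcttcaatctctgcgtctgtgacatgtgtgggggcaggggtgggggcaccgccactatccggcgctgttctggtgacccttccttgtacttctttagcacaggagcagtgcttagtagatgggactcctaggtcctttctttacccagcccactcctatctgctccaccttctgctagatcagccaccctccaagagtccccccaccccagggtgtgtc
Itgb1 (GRCm38.p6, chr8:128685404-128685653, plus strand): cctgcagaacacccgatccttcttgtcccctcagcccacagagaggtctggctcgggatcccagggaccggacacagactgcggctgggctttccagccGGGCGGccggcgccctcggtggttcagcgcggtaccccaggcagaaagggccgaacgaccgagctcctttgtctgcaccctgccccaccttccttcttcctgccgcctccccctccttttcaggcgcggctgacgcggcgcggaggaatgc
The Itga4 window holds 1 Runx match, 60 bases before the start, and 1 Sp match, 114 bases before it. The Itgb1 window holds 1 Sp match, 151 bases before the start, and the Itgb7 window none of the 3. Among the same windows of all 32851 RefSeq promoters, 14.0% hold the Runx letters, 32.7% the Sp letters and 7.02% the STAT letters. Of the 10 genes, 5 matched the promoter table, and the other 2 of these, Itgav and Itga1, hold no match. A match is a description of the letters only.

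Sf.Il2-/- set against Sf asks which integrin chains differ when IL-2 is missing and Foxp3 is mutated. The alpha chain of the E-cadherin receptor was far lower without IL-2, while for its beta chain no difference was detected. Itgae read 5.99, 5.42 and 5.11 in Sf.Il2-/-, against 9.50, 9.29 and 7.54 in Sf, with 6.56 in B6. Every Sf.Il2-/- array lay below every Sf array, and below B6 as well. Itgae fell by 3.27 ± 0.47 on the log2 scale (SE, n = 3 and 3), which is 9.62-fold (limma adjusted p = 0.0300). It was the single one of the 9 tested integrin genes past the threshold, with 0 higher and 1 lower. Of all genes 0.279% were called, 0.0436% higher and 0.236% lower. Unadjusted p was under 0.05 for 4 of the 9, and for 7.92% of all genes. Taken by replicate number, which is not shown to pair the arrays, the differences were -3.51, -3.86 and -2.42, the smallest being that with Sf 3.

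The call rests on few arrays. Itgae kept a difference between -3.89 and -2.86 over 17 alternatives and passed in 9 of them. The adjusted p was 0.0977 after quantile normalization and 0.0870 without the filter on dim genes, and lay between 0.0544 and 0.134 when Sf 1, Sf 2 or any 1 Sf.Il2-/- array was left out. Without Sf 3, where 7.43% of all genes passed against 0.279% with it, the adjusted p was 0.000214, with a difference of -3.89. With the replicate numbers as a block, where 0.524% of all genes passed, the adjusted p was 0.00236, though the numbers are not shown to pair the arrays.

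Itgae has a second probe set, whose suffix (_s_at) marks probes that may match more than 1 transcript. There it read 5.08, 4.41 and 4.71 in Sf.Il2-/-, against 9.35, 9.21 and 7.22 in Sf and 5.79 in B6. The same arrays were high and low, and the groups again did not overlap. The difference was -3.86, with an adjusted p of 0.0362 over the 24435 probe sets tested by limma, against 0.0534 for the brighter probe set in that fit.

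Some markers of regulatory T cells, which often express Itgae, were also lower in Sf.Il2-/- than in Sf. Of the 8 on the list, all tested, 3 fell in Sf.Il2-/-, beside 0.236% of all genes, and 0 rose, beside 0.0436%. Foxp3 read 4.41, 4.20 and 4.24 in Sf.Il2-/-, against 6.04, 5.87 and 6.32 in Sf (difference -1.79, limma adjusted p = 0.0211). Il2ra, the high-affinity chain of the IL-2 receptor, differed by -4.07 (limma adjusted p = 0.00132), and Ikzf4, a partner of Foxp3, by -1.85 (limma adjusted p = 0.0450). Of 16 alternatives Il2ra passed in 16, Foxp3 in 13 and Ikzf4 in 7. The other 5 markers did not pass, and the summed linear intensity of the list was 3601 to 5502 in Sf.Il2-/-, 5367 to 7578 in Sf and 4088 in B6. In sorted cells measured in bulk, fewer cells of a kind and less RNA per cell cannot be told apart, and the part of these cells in the Itgae result was not tested. Within Sf, Foxp3, Il2ra and Ikzf4 were each highest in Sf 3, the array in which Itgae was lowest. The markers that did not pass were split. Ctla4 (11.07) and Tnfrsf18 (10.77) were highest in Sf 3, Ikzf2 (11.05) and Nrp1 (10.01) in Sf 1, and Gpr83 was lowest in Sf 3 (6.53). In the single B6 array Foxp3 read 7.25, above every Sf array, and Itgae lay below every Sf array. Il2ra in B6, at 6.92, also lay below every Sf array, and Ikzf4, at 7.19, lay among them.

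**Figure D1:**
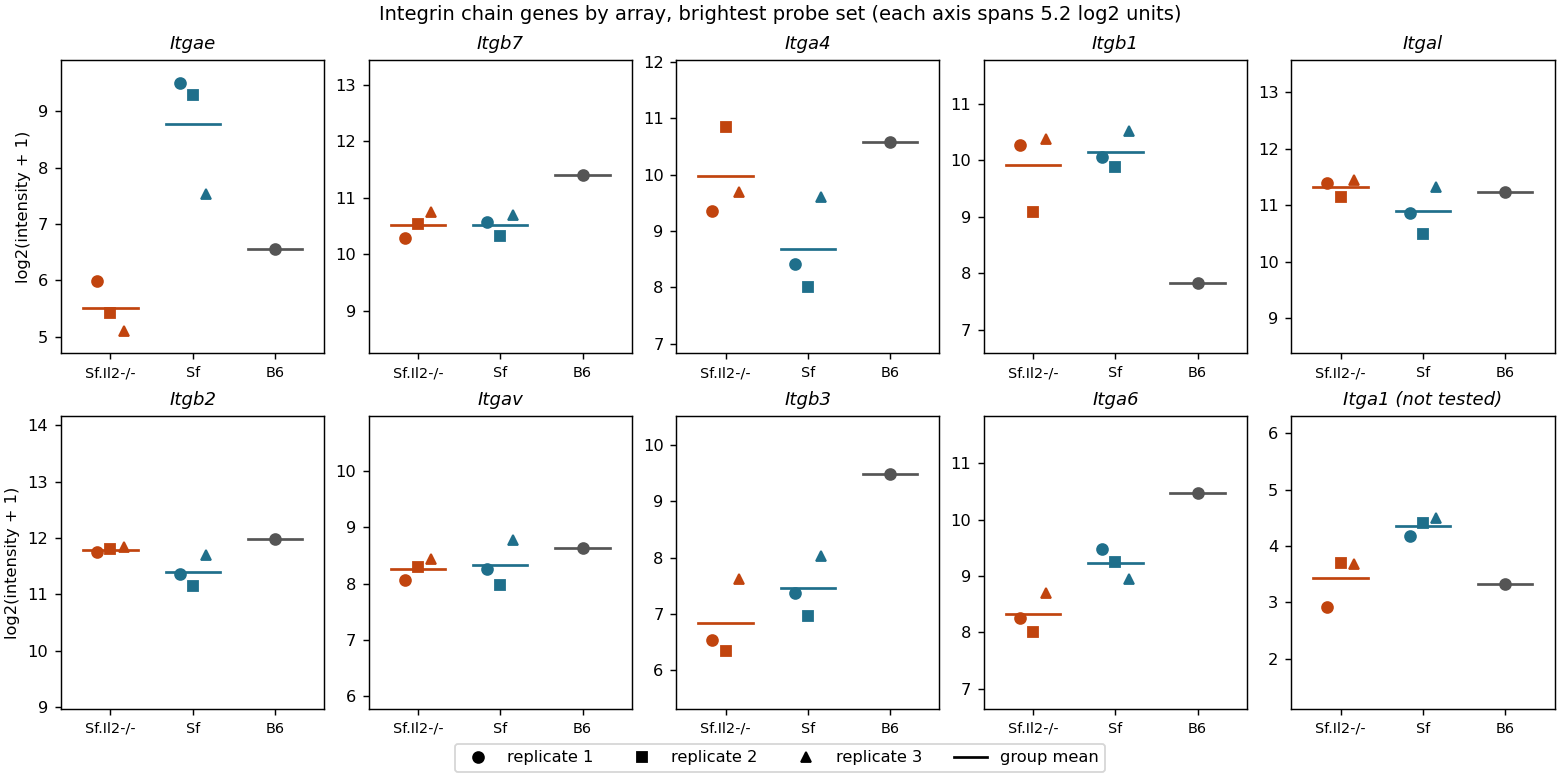
Log2(intensity + 1) of the 10 integrin genes at their brightest probe sets, 1 point per array, bars at group means, with the same span on every axis. The 3 Sf.Il2-/- arrays of Itgae (5.11 to 5.99) lie below the 3 Sf arrays (7.54 to 9.50), and Itgb1 is higher in all 6 mutant arrays (9.09 to 10.53) than in B6 (7.83).

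**Figure D2:**
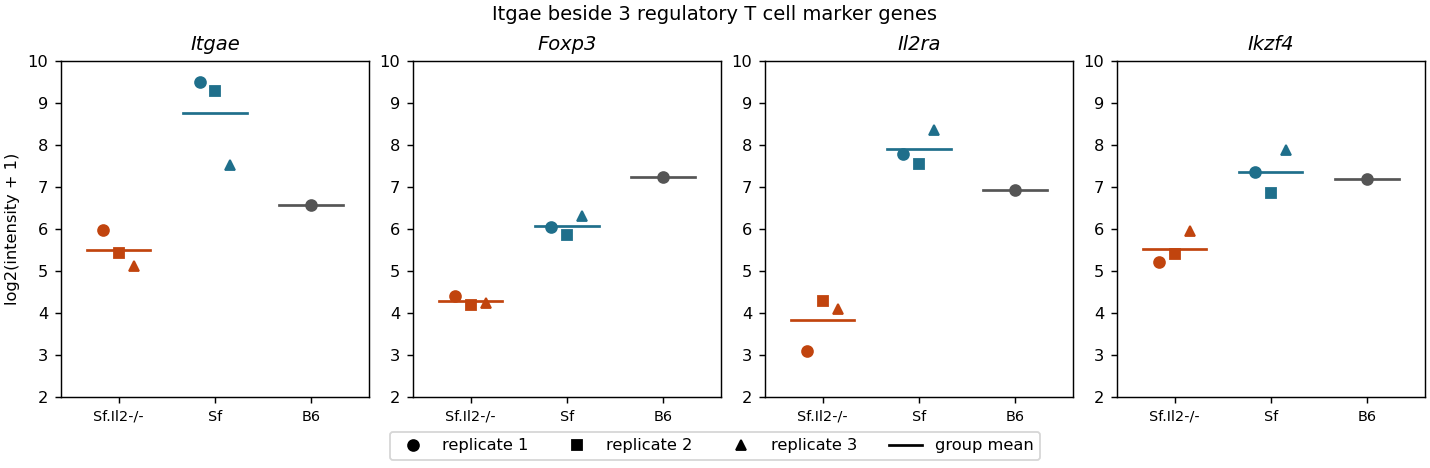
Log2(intensity + 1) of Itgae and of Foxp3, Il2ra and Ikzf4 on a common axis, 1 point per array, bars at group means. All 4 genes are lower in each Sf.Il2-/- array than in any Sf array, and among Sf arrays replicate 3 is lowest for Itgae and highest for the other genes.

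Itgb7, the only chain known to partner αE, read 10.28, 10.54 and 10.74 in Sf.Il2-/-, against 10.56, 10.31 and 10.69 in Sf, with 11.40 in B6. The mutant groups overlapped and both lay below B6. The difference between them was -0.00208 ± 0.18 (SE; limma adjusted p = 0.998), and its sign turned when arrays were centred on their medians (0.09). Itgae minus Itgb7, taken within each array, was -4.29, -5.11 and -5.63 in Sf.Il2-/-, against -1.06, -1.03 and -3.16 in Sf, with -4.83 in B6. The groups did not overlap, and alpha minus beta differed by -3.26 (two-sided exact permutation p = 0.1, the smallest that 3 against 3 arrays allow, and 0.267 adjusted over 8 pairs).

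Itga4, the alpha chain of α4β7 and α4β1, read 9.36, 10.85 and 9.70 in Sf.Il2-/-, against 8.42, 8.02 and 9.60 in Sf and 10.59 in B6. Sf 3 lay among the Sf.Il2-/- arrays, so the groups overlapped. The difference of 1.29 ± 0.46 did not pass (limma adjusted p = 0.487). Without Sf 3, where 7.43% of all genes passed against 0.279% with it, the difference was 1.75 with an adjusted p of 0.0312. Without Sf.Il2-/- 2, the array with the most Itga4, it was 0.85, and without that array and Sf 1 it was 0.72. All 5 probe sets of Itga4 had a positive difference, from 0.84 to 1.55. Against its partners, Itga4 minus Itgb7 differed by 1.29 and Itga4 minus Itgb1 by 1.53, each without overlap between the groups (exact permutation p = 0.1 for each, 0.267 adjusted over the 8 pairs). For Itgb1 the nearest arrays of the groups were only -0.910 and -0.921. Without Sf.Il2-/- 2 these differences were 0.86 for Itgb7 and 0.68 for Itgb1, and without Sf 1 as well 0.71 and 0.59.

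The LFA-1 chains, which hold T cells to antigen presenting cells and vessel walls, had small positive differences in Sf.Il2-/- that did not pass and that depended on the normalization. Itgb2, the beta chain shared by the leukocyte integrins, read 11.75, 11.80 and 11.83 in Sf.Il2-/-, against 11.35, 11.16 and 11.69 in Sf and 11.98 in B6. These groups did not overlap, though the difference was small at 0.39 ± 0.15 (limma adjusted p = 0.555). Itgal, its alpha partner, read 11.39, 11.15 and 11.45 in Sf.Il2-/-, against 10.86, 10.49 and 11.31 in Sf and 11.23 in B6 (difference 0.44 ± 0.21, limma adjusted p = 0.660). Without Sf 3 both passed, Itgb2 at 0.54 (adjusted p = 0.0312) and Itgal at 0.65 (adjusted p = 0.0400), where 7.43% of all genes passed against 0.279% with it. After quantile normalization the differences were 0.11 for Itgb2 (adjusted p = 0.824) and 0.04 for Itgal (0.942). Markers of CD4 T cells followed a like order: their summed linear intensity was 10675 to 12778 in Sf.Il2-/-, 6689 to 9619 in Sf and 13376 in B6. Between the mutants 0 of the 5 passed by limma. An unadjusted p under 0.05 was reached by 4 of the 5, and by 7.92% of all genes. The part of these markers in the LFA-1 and Itga4 values was not tested. Itgal minus Itgb2 stayed within a narrow band in all 7 arrays, from -0.74 to -0.36, and differed by 0.05 between the mutants (exact permutation p = 0.6).

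Itga6, a laminin receptor chain, read 8.25, 8.01 and 8.69 in Sf.Il2-/-, against 9.48, 9.25 and 8.94 in Sf and 10.47 in B6. The 3 groups were ordered without overlap, lowest in Sf.Il2-/- and highest in B6. The step between the mutants was -0.91 ± 0.24 (limma adjusted p = 0.333). Without Sf 3, where 7.43% of all genes passed, the step was -1.05 with an adjusted p of 0.0296. A second probe set gave -0.92, and there the mutants overlapped, with Sf.Il2-/- 3 at 8.15 and Sf 3 at 7.97. Without the pair Sf 1 and Sf.Il2-/- 2 the difference at the brightest was -0.63. Among all genes tested, 12.1% had Sf.Il2-/- and Sf arrays that did not overlap, against 3 of the 9 tested integrin genes (Itgae, Itgb2 and Itga6).

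For the other 3 tested chains the mutant groups overlapped at the brightest probe set. Itgb1, the partner of α4, α6, α1 and αV, read 10.27, 9.09 and 10.38 in Sf.Il2-/-, against 10.06, 9.88 and 10.53 in Sf. Sf.Il2-/- 2 was low, and the difference of -0.24 (limma adjusted p = 0.944) turned to 0.17 without that array. All 6 probe sets of Itgb1 had a negative difference, from -1.06 to -0.24. The dimmest tested one read 3.51 to 4.58 in Sf.Il2-/- and 4.91 to 5.17 in Sf, without overlap. Its difference was -1.06 (limma adjusted p = 0.541 over all probe sets tested). The 2 untested ones did not overlap either (-0.78 and -0.42). Itgav read 8.07, 8.28 and 8.44 in Sf.Il2-/-, against 8.26, 7.97 and 8.77 in Sf (difference -0.07, limma adjusted p = 0.971), and the sign turned when arrays were centred on their medians. Its 5 probe sets differed by -0.53 to -0.07. At the second brightest, which differed by -0.15, the groups did not overlap. Itgb3, which pairs with αV, read 6.54, 6.35 and 7.63 in Sf.Il2-/-, against 7.38, 6.97 and 8.02 in Sf (difference -0.62, limma adjusted p = 0.789).

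Itga1, the collagen receptor chain of tissue-dwelling T cells, was dim in every group and was not tested. It read 2.92, 3.69 and 3.69 in Sf.Il2-/-, 4.17, 4.40 and 4.49 in Sf, and 3.33 in B6. Its other probe set read 1.01 to 2.26 in Sf.Il2-/-, 2.48 to 2.99 in Sf and 1.12 in B6. At both probe sets the Sf arrays lay above all the others, at levels too near the floor for a size.

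Sf.Il2-/- against B6 asks what the loss of Foxp3 function and of IL-2 together change, and Sf against B6 what the Foxp3 mutation changes with Il2 intact. The comparisons share the single B6 array, which is assumed to vary like the others. The median of all genes tested was -0.14 in Sf.Il2-/- minus B6 and -0.25 in Sf minus B6, and 0.06 in Sf.Il2-/- and 0.02 in Sf after quantile normalization, so differences are also given relative to the median. The replicate block was run with the B6 array in block 1, after its number, although nothing pairs it with a mutant mouse. It was therefore also run with the mutant arrays alone in blocks and B6 in none, an alternative chosen after seeing the data. This leaves the differences as they are and changes their error. The block called 10.6% of all genes in Sf.Il2-/- and 16.4% in Sf, and with B6 in no block 11.2% and 16.4%. Without Sf 3 the shares were 13.1% in Sf.Il2-/- and 30% in Sf, against 2.69% and 2.47% in the main fit. Passes under these settings, given below, stand beside those shares.

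The shared beta chain Itgb1, which rises as naive T cells become effector or memory cells, was higher in every mutant array than in B6. It read 10.27, 9.09 and 10.38 in Sf.Il2-/- and 10.06, 9.88 and 10.53 in Sf, against 7.83 in B6. In Sf it rose by 2.32 ± 0.48 (log2, SE, n = 3 and 1; 2.57 relative to the all-gene median; limma adjusted p = 0.0400), a 5.01-fold difference. It was the single integrin gene of 9 called there, 1 higher and 0 lower, beside 2.47% of all genes called (1.31% higher, 1.16% lower). Unadjusted p was under 0.05 for 7 of the 9, and for 22.5% of all genes. In Sf.Il2-/- the difference was 2.08 ± 0.48 (2.22 relative to the median), just outside the threshold (adjusted p = 0.0563), and it passed with the replicate block (2.21, adjusted p = 0.0125, and 0.00873 with B6 in no block), after quantile normalization (2.25, 0.0160), without Sf.Il2-/- 2 (2.50, 0.0145) and without Sf 3 (0.0154). The Sf call was lost without Sf 1 (adjusted p = 0.0706), without Sf.Il2-/- 1 (0.0532), without the intensity trend (0.0595), with the mean of the gene's probe sets (1.80, 0.0595), with every probe set as its own row (0.0575) and without the filter (0.0772), which is 6 of 17 alternatives.

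The 4 tested probe sets of Itgb1 read 1.95 to 2.36 higher in Sf than in B6 and 0.88 to 2.08 higher in Sf.Il2-/-. Of the 2 dim ones, 1 was 1.86 higher in Sf and the other read level with B6 (-0.00218). The direction thus did not rest on the brightest probe set alone.

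Itgb3 and Itga6 read lower than B6 in all 6 mutant arrays. Itgb3, the vitronectin receptor chain, read 6.54, 6.35 and 7.63 in Sf.Il2-/- and 7.38, 6.97 and 8.02 in Sf, against 9.48 in B6. It fell by 2.64 ± 0.52 in Sf.Il2-/- (-2.50 relative to the median), a 6.21-fold difference (limma adjusted p = 0.0343). In Sf the difference was -2.02 ± 0.52 (-1.77 relative to the median; adjusted p = 0.0744), and it passed with the replicate block (-2.21, adjusted p = 0.00675, and 0.00444 with B6 in no block), without Sf 3 (-2.30, 0.00945), without Sf.Il2-/- 3 (0.0462) and without the pair Sf 1 and Sf.Il2-/- 2 (-1.98, 0.0325). The Sf.Il2-/- call was lost without Sf.Il2-/- 1 (adjusted p = 0.0923) or Sf.Il2-/- 2 (0.0727), with the mean of its probe sets (0.0682) and without the filter (0.0718). The second probe set of Itgb3 gave -1.78 in Sf.Il2-/- and -1.51 in Sf.

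Platelets carry much Itgb3. Of 6 platelet markers 2 were tested and 0 passed in any comparison by limma, also at an unadjusted p under 0.05. Pf4, Ppbp, Gp9 and Gp1bb read under 5 in every array, and the summed intensity of the list was 190 to 261 in Sf.Il2-/-, 170 to 332 in Sf and 199.97 in B6. The part of platelets in the Itgb3 values was not tested.

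Itga6 fell by 2.14 ± 0.34 in Sf.Il2-/- (n = 3 and 1; -2.01 relative to the median), a 4.42-fold difference (limma adjusted p = 0.0150). This call passed in all 17 alternatives run, with an adjusted p of 0.0474 at the highest and a difference between -2.40 and -1.72. In Sf the difference was -1.24 ± 0.34 (-0.99 relative to the median; adjusted p = 0.0899), and -0.65 after quantile normalization, and it passed without Sf 3 (-1.10, adjusted p = 0.0231) and with the mutant arrays in blocks and B6 in none (0.0395). Its second probe set gave -2.65 in Sf.Il2-/- and -1.73 in Sf. Itgb3 and Itga6 were the 2 integrin genes called in Sf.Il2-/-, 0 higher and 2 lower of 9, beside 2.69% of all genes called (1.49% higher, 1.2% lower). Unadjusted p was under 0.05 for 4 of the 9, and for 18.6% of all genes.

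Itgae was on opposite sides of B6 in the 2 mutants. The difference was -1.06 ± 0.66 in Sf.Il2-/- (limma adjusted p = 0.434) and 2.21 ± 0.66 in Sf (limma adjusted p = 0.107). Relative to the median these are -0.92 in Sf.Il2-/- and 2.46 in Sf. The Sf value passed with the replicate block (2.81, adjusted p = 0.0114, and 0.0127 with B6 in no block), without Sf 3 (2.83, adjusted p = 0.00223) and without the pair Sf 1 and Sf.Il2-/- 2 (1.85, adjusted p = 0.0478). All 3 Sf arrays read above B6 and all 3 Sf.Il2-/- arrays below it.

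Itgb7 differed from B6 by -0.88 ± 0.26 in Sf.Il2-/- (limma adjusted p = 0.120) and by -0.88 ± 0.26 in Sf (0.101), or -0.74 in Sf.Il2-/- and -0.63 in Sf relative to the median. After quantile normalization the values were -0.63 in Sf.Il2-/- (adjusted p = 0.0946) and -0.24 in Sf (0.499). With the replicate block the Sf value passed (-0.98, adjusted p = 0.0423, and 0.0417 with B6 in no block), and without Sf 3 both did (adjusted p = 0.0278 in Sf.Il2-/- and 0.0151 in Sf). Itga4 differed by -0.62 ± 0.65 in Sf.Il2-/- and -1.91 ± 0.65 in Sf (limma adjusted p = 0.657 for Sf.Il2-/- and 0.138 for Sf), the Sf value passing without Sf 3 (-2.37, adjusted p = 0.0108). Relative to the median they were -0.48 in Sf.Il2-/- and -1.66 in Sf. All 5 probe sets of Itga4 were lower in Sf than in B6, from -1.91 to -1.26, and those of Sf.Il2-/- lay on both sides of 0, from -0.62 to 0.25.

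Itgal and Itgb2 lay near B6. Itgal differed by 0.09 in Sf.Il2-/- and -0.34 in Sf, and the Sf value was 0.32 after quantile normalization and 0.19 at its second probe set. Itgb2 differed by -0.18 in Sf.Il2-/- and -0.57 in Sf (limma adjusted p = 0.704 for Sf.Il2-/- and 0.165 for Sf), and in Sf by -0.72 (adjusted p = 0.0113) without Sf 3, where 30% of all genes were called, and by -0.20 after quantile normalization. Itgav differed by -0.36 in Sf.Il2-/- and -0.29 in Sf, and in Sf by 0.07 after quantile normalization. Its 5 probe sets lay on both sides of 0, from -0.36 to 0.37 in Sf.Il2-/- and from -0.29 to 0.67 in Sf. At the second brightest every mutant array (5.88 to 6.19) lay above B6 (5.66), by 0.37 on average in Sf.Il2-/- and 0.52 in Sf. Relative to the median of all genes, Itgal was 0.23 in Sf.Il2-/- and -0.10 in Sf, Itgb2 -0.04 in Sf.Il2-/- and -0.33 in Sf, and Itgav -0.22 in Sf.Il2-/- and -0.04 in Sf. Over the 9 tested genes the median difference was -0.62 in Sf.Il2-/- and -0.57 in Sf, against -0.14 in Sf.Il2-/- and -0.25 in Sf over all genes. In each mutant, 7 of the 9 had all 3 arrays on 1 side of B6, as did 69.2% of all genes tested in Sf.Il2-/- and 66.5% in Sf.

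**Figure D3:**
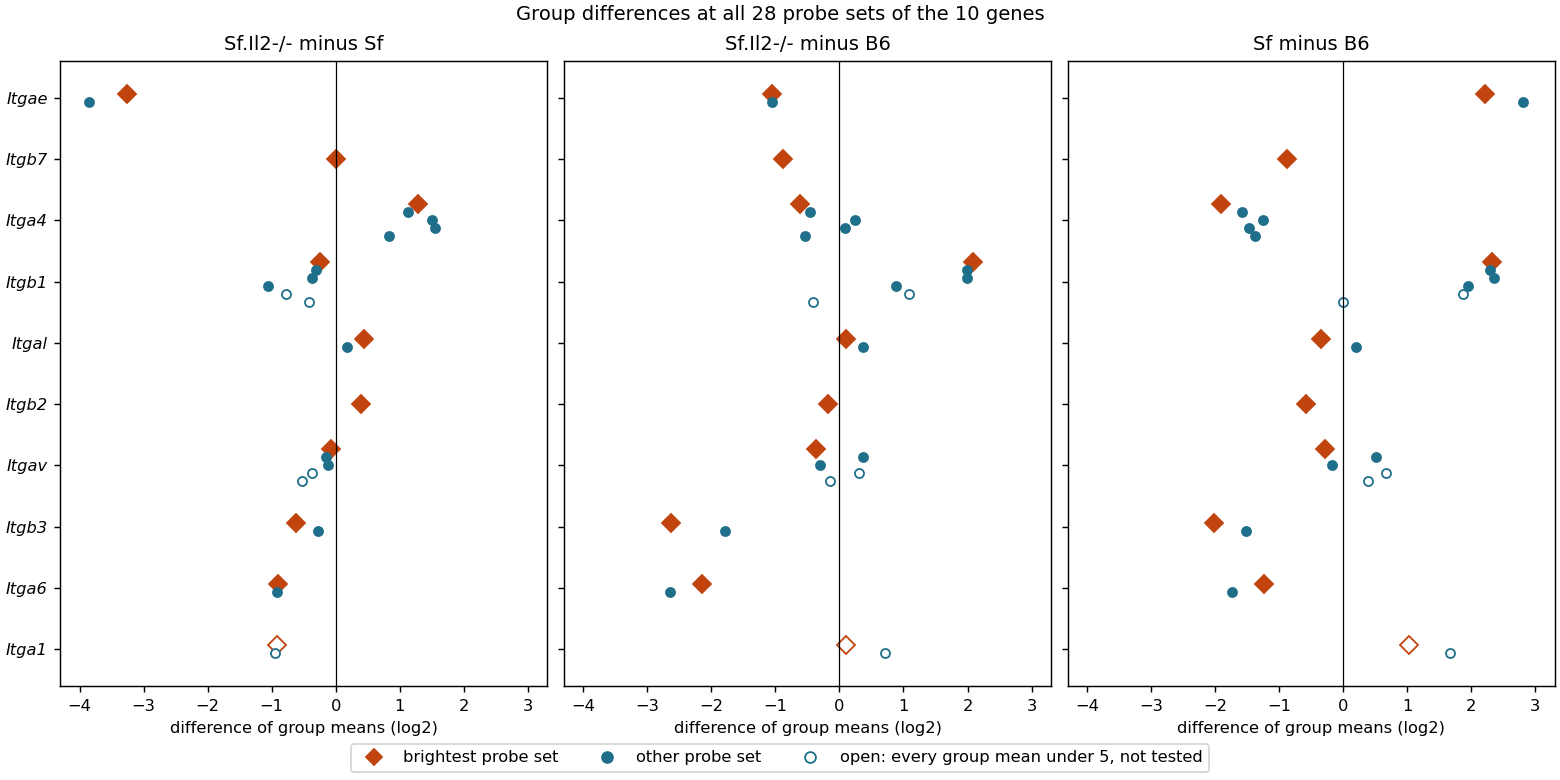
Differences of group means (log2) at all 28 probe sets of the 10 genes, diamonds for the brightest, open symbols where every group mean was under 5. The probe sets of Itgae, Itga4, Itgb3 and Itga6 fall on 1 side of 0 in Sf.Il2-/- minus Sf and in Sf minus B6, and 5 of the 6 of Itgb1 are above 0 in Sf minus B6.

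Set in pairs, the balance of alpha to beta chain against B6 differed most, in both mutants, for Itga6 with Itgb1 and Itga4 with Itgb1. Both pairs share Itgb1, which itself read above B6 by 2.08 in Sf.Il2-/- and 2.32 in Sf, so their shifts are not separate. Itga6 minus Itgb1 was -2.02, -1.07 and -1.69 in Sf.Il2-/- and -0.57, -0.63 and -1.58 in Sf, against 2.63 in B6. The 2 chains are read by different probe sets, so their zero has no meaning and only the shift between arrays can be read. The mean shift from B6 was -4.23 in Sf.Il2-/- and -3.56 in Sf. Itga4 minus Itgb1 was -0.91, 1.76 and -0.69 in Sf.Il2-/- and -1.64, -1.86 and -0.92 in Sf, against 2.75 in B6. All mutant arrays were lower, and Sf.Il2-/- 2 was the closest to B6. Itgav minus Itgb1 averaged -1.65 in Sf.Il2-/- and -1.82 in Sf, against 0.79 in B6, and Itgav minus Itgb3 averaged 1.42 in Sf.Il2-/- and 0.88 in Sf, against -0.85 in B6. Itgae minus Itgb7 shifted from B6 by -0.18 in Sf.Il2-/- and by 3.09 in Sf. These are changes of a difference within an array and say nothing of how much of each chain there was. The shifts against B6 were not tested.

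Between the mutants, 8 pairs were compared by exact permutation. Itgae with Itgb7, Itga4 with Itgb7 and Itga4 with Itgb1 did not overlap and reached the smallest p of 0.1 (0.267 adjusted). For the other 5 pairs the groups overlapped, with differences of -0.68 for Itga1 and Itgb1, -0.67 for Itga6 and Itgb1, 0.05 for Itgal and Itgb2, 0.17 for Itgav and Itgb1 and 0.55 for Itgav and Itgb3 (exact permutation p = 0.4, 0.2, 0.6, 1.0 and 0.3).

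**Figure D4:**
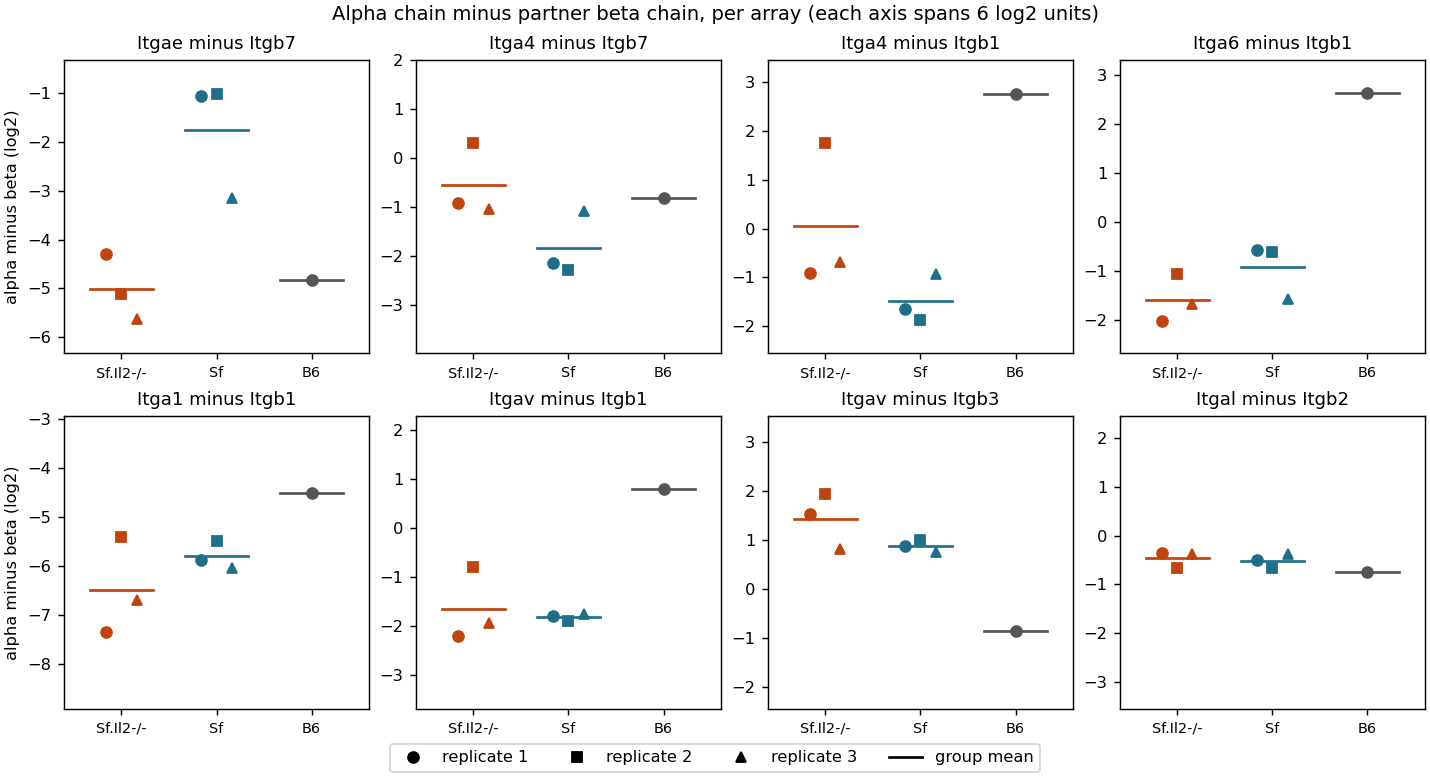
Alpha minus beta chain log2 value within each array for 8 pairs, bars at group means, with the same span on every axis. Itgae minus Itgb7 is -5.63 to -4.29 in Sf.Il2-/- and -3.16 to -1.03 in Sf, and Itga6 minus Itgb1 is -2.02 to -0.57 in the 6 mutant arrays and 2.63 in B6. The place of 0 has no meaning, since the chains are read by different probe sets.

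Other genes of integrin function were taken from lists. Of 28 activation and signalling genes 26 were on the array and tested, and 0 passed between Sf.Il2-/- and Sf. There 2 of the 26 had an unadjusted p under 0.05 by limma, beside 7.92% of all genes. The lowest p there was that of Stk4, the Mst1 kinase that helps LFA-1 adhere, at 0.56 (adjusted p = 0.365). Against B6, 1 of 26 fell in Sf.Il2-/-, beside 1.2% of all genes, and 3 of 26 fell in Sf, beside 1.16%, with 0 higher in either. Rasgrp2, which switches on the GTPase Rap1 and through it the integrins, fell by 2.33 in Sf.Il2-/- (adjusted p = 0.0263) and by 2.03 in Sf (adjusted p = 0.0430). It read 8.76, 8.38 and 9.50 in Sf.Il2-/- and 9.07, 8.89 and 9.56 in Sf, against 11.21 in B6, and every mutant array was lower. Stk4 fell by 1.22 in Sf (adjusted p = 0.0240). Of 16 alternatives Rasgrp2 passed in 13 for Sf.Il2-/- and in 10 for Sf, Stk4 in 12 and Rhoh in 7. Rhoh, a GTPase of T cells that restrains LFA-1, fell by 1.35 in Sf (adjusted p = 0.0423), and after quantile normalization differed by -0.79 (adjusted p = 0.249). The list median was -0.32 in Sf.Il2-/- and -0.68 in Sf, against -0.14 in Sf.Il2-/- and -0.25 in Sf for all genes.

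Among integrin ligands 8 of 16 were tested and 0 passed between the mutants by limma (0 also at an unadjusted p under 0.05), Vcam1 having the lowest p (0.91, adjusted p = 0.693). Against B6, Vcam1, the ligand of α4β1, rose in Sf.Il2-/-, 1 of 8 higher beside 1.49% of all genes and 0 lower. In Sf 0 passed, and 4 of the 8 had an unadjusted p under 0.05, beside 22.5% of all genes. Icam2 had the lowest p in Sf (-1.76, adjusted p = 0.0583). Vcam1 read 5.22, 7.03 and 5.80 in Sf.Il2-/- and 5.05, 4.60 and 5.66 in Sf, against 2.40 in B6. It rose by 3.62 in Sf.Il2-/- (adjusted p = 0.0239), though B6 read near the floor, which leaves the fold loose, and the difference was 1.87 at the lowest over 16 alternatives, of which it passed in 13. The array with the most Vcam1, Sf.Il2-/- 2, also read highest for some genes of myeloid cells. S100a8 of neutrophils read 7.63 there and 6.37 in Sf 1, against 2.53 to 4.10 elsewhere, S100a9 read 7.09 and 5.72 in these arrays, against 1.34 to 3.23, and Lyz2 of macrophages 7.02 and 5.76, against 4.02 to 5.05. The neutrophil genes Mpo and Ltf were not highest in Sf.Il2-/- 2, at 6.03 to 6.70 and 4.45 to 5.77 over the 7 arrays. Ngp was highest there, at 7.13, within a narrow range of 6.50 to 7.13. The macrophage genes Csf1r (8.36 to 9.49), Cd14 (4.22 to 5.28) and Adgre1 (5.12 to 6.09) were not highest in Sf.Il2-/- 2, though Csf1r read 9.48 in that array. The summed neutrophil list (5 of 6 on the array) was 225 to 592 in Sf.Il2-/-, 192 to 401 in Sf and 236 in B6, and its part in the result was not tested.

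Of the genes of TGF-beta signalling and Runx factors, through which Itgae is induced in T cells, 12 of 13 were tested. Between Sf.Il2-/- and Sf 0 passed, and 2 of the 12 had an unadjusted p under 0.05 by limma, beside 7.92% of all genes. Tgfbr2, a TGF-beta receptor chain, had the lowest p there at 0.69 (adjusted p = 0.391), and its partner chain Tgfbr1, next to it, differed the other way, at -0.82 (adjusted p = 0.394). Against B6, 2 of 12 fell in Sf.Il2-/-, beside 1.2% of all genes, and 2 of 12 in Sf, beside 1.16%, with 0 higher. Tgfbr3, a co-receptor, fell by 1.80 in Sf.Il2-/- (limma adjusted p = 0.0263) and by 1.60 in Sf (adjusted p = 0.0407). Smad7, a feedback inhibitor, fell by 2.17 in Sf.Il2-/- (adjusted p = 0.0331) and Tgfbr2 fell by 1.55 in Sf (adjusted p = 0.0252). Of 16 alternatives Smad7 and Tgfbr2 each passed in 12, and Tgfbr3 in 11 for Sf.Il2-/- and in 6 for Sf. Both Tgfbr3 calls were lost after quantile normalization, at -1.40 in Sf.Il2-/- (adjusted p = 0.0710) and -1.10 in Sf (0.156).

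Of the other 16 integrin chains 10 were tested and 0 passed in any comparison. Unadjusted p by limma was under 0.05 for 1 of the 10 between the mutants, and against B6 for 2 in Sf.Il2-/- and 1 in Sf. The shares of all genes were 7.92% between the mutants, 18.6% in Sf.Il2-/- and 22.5% in Sf. The lowest p belonged to Itga9 in Sf.Il2-/- against Sf (-1.66, adjusted p = 0.430) and against B6 (-3.32, adjusted p = 0.0514), and to Itga10 in Sf (-1.70, adjusted p = 0.206). Itga9, which pairs with β1, read 2.85, 3.26 and 4.62 in Sf.Il2-/- and 5.09, 6.11 and 4.49 in Sf, against 6.89 in B6. Itgam, the CD11b chain of myeloid cells, read 4.19 or less in every array, and Itgax, the CD11c chain, 4.72 to 5.96. Itga2b of platelets read 5.25 to 5.80.

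**Figure D5:**
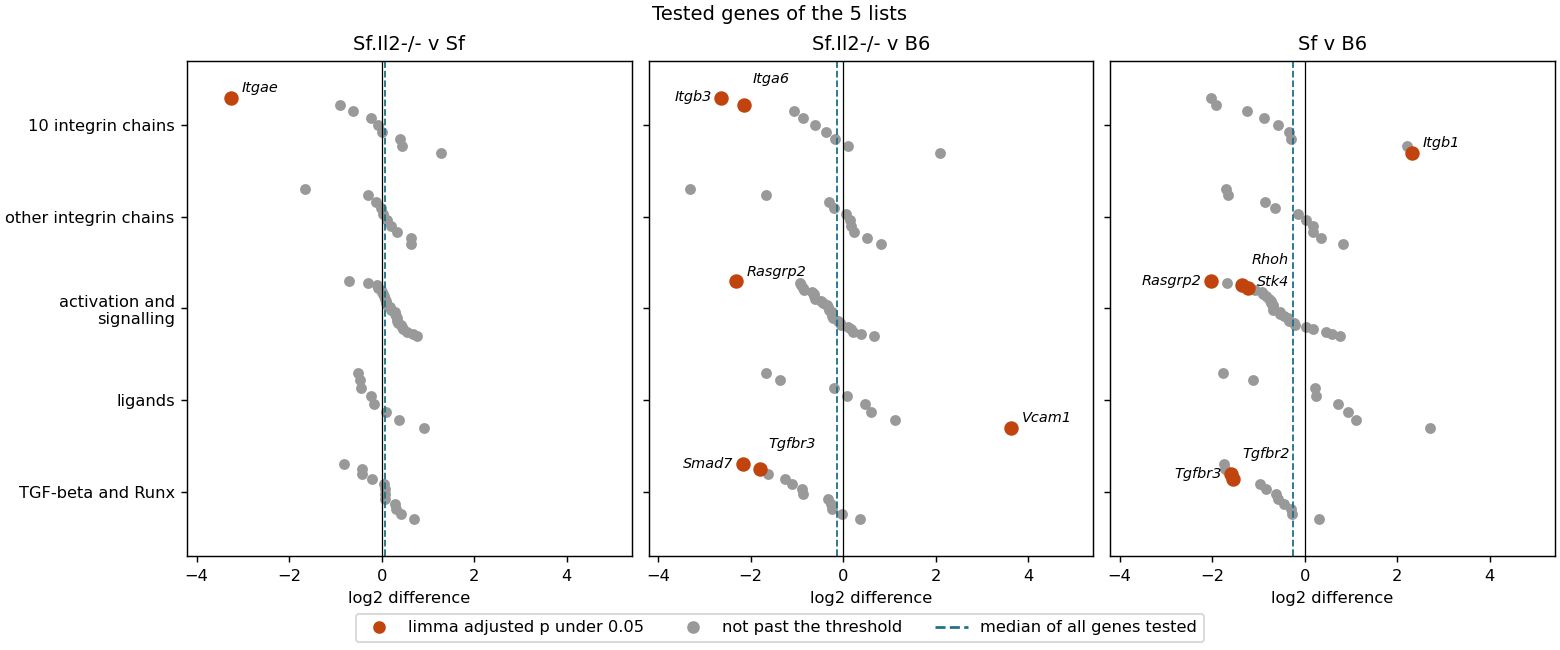
Log2 differences of the tested genes of the 5 lists, coloured where the limma adjusted p was under 0.05, with a dashed line at the median of all genes tested. Itgae is called between the mutants (-3.27), Itgb3, Itga6, Rasgrp2, Smad7 and Tgfbr3 lie below 0 and Vcam1 above it in Sf.Il2-/- v B6, and Itgb1 is the gene called above 0 in Sf v B6.

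The genes nearest in pattern were found by the root-mean-square distance between mean-centred log2 profiles over the 7 arrays, among 11459 others. Nearest to Itgae were Cysltr1 (a leukotriene receptor, 0.48), D630039A03Rik (0.67) and Plac8 (0.67). Cysltr1 read 4.36, 4.36 and 3.98 in Sf.Il2-/-, against 8.14, 7.50 and 6.61 in Sf and 4.14 in B6, again lowest of the Sf arrays in Sf 3. Nearest to Itgb1 were Ell2 (0.20), Egln3 (an oxygen-sensing hydroxylase, 0.23) and Lmnb1 (a lamin, 0.24). Nearest to Itgb3 were Gsta4 (0.20), Rasgrp2 (0.21) and Als2cl (0.24), and nearest to Itga6 were Ramp1 (0.18), Tmem64 (0.20) and Pacsin1 (0.22).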

How the data were processed

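RNA of sorted CD4+ T cells was measured on 7 Affymetrix mouse arrays. The deposited table holds 1 linear intensity per probe set and array. The submitters' processing notes name GCRMA and GCOS without version, order or parameters, and the build behind the array annotation is not given in the sources used here.

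Values were taken as log2(intensity + 1). Gene names came from the array annotation, updated through Entrez numbers (34741 of 34945 probe sets that name 1 gene). Each gene was taken at whichever of its probe sets was brightest on average, and tested where the highest group mean was at least 5, leaving 11460 of 18193 genes. The 3 group means were fitted together in limma 3.58.1 (R 4.3.3) by lmFit, then eBayes with trend, giving 4 residual degrees of freedom and 9.57 in total. P-values were Benjamini-Hochberg adjusted, with a threshold of 0.05. Chain pairs were compared by two-sided exact permutation over the 6 mutant arrays (20 divisions).

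The 10 genes, the lists and the settings were chosen with earlier results of these data known. All 10 genes are named, as are up to 4 called members per list and comparison (or that with the lowest p), Foxp3, Il2 and Il2ra, and the 3 genes nearest in pattern to each called integrin gene. Tgfbr1, Itgam, Itgax, Itga2b, Eomes, Kit, Cpa3, the regulatory T cell markers that did not pass and the neutrophil and macrophage genes were named after their values were seen. Alternatives were other filters, normalizations, pseudocounts and probe set rules, no intensity trend, a replicate block (also with B6 outside it), and leaving out arrays, also Sf 1 with Sf.Il2-/- 2, which read high for S100a8. Replicate numbers come from the titles. Deviations from the group mean correlated between same-numbered mutant arrays at 0.301, 0.211 and 0.505, each above 0.1, and the numbers were used as blocks. Arrays of unlike number passed that bar too, Sf 2 with Sf.Il2-/- 1 (0.333) and Sf 1 with Sf.Il2-/- 2 (0.111). The correlations therefore cannot show that the mutant arrays are paired. The labels call the arrays of a mutant group biological replicates and number no mice. Promoter windows are from RefSeq (GRCm38.p6). Figures were drawn with matplotlib 3.10.9.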

Additional observations from a re-analysis of the deposited data

How the results depend on the processing

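In Sf.Il2-/- against Sf 32 genes were called, and 11 without the filter on dim genes, 60 with the replicate block and 8 to 872 with 1 array left out. The 872 came without Sf 3 and were 672 higher and 200 lower, against 5 and 27 with it. In Sf.Il2-/- against B6 it was 308, and 138 without the filter, 723 after quantile normalization (484 higher and 239 lower, against 171 and 137), 1212 with the block (345 higher and 867 lower), 1280 with B6 outside the blocks (452 higher and 828 lower) and 129 to 1541 with 1 array left out (1541 without Sf 3, 537 higher and 1004 lower). In Sf against B6 it was 283, and 161 without the filter, 188 with probe sets averaged per gene, 554 after quantile normalization (391 higher and 163 lower, against 150 and 133), 1880 with the block (490 higher and 1390 lower), 1878 with B6 outside the blocks (532 higher and 1346 lower) and 116 to 3523 with 1 array left out (3523 without Sf 3, 712 higher and 2811 lower). The block takes its levels from the replicate numbers, which are not shown to pair the arrays, and leaves 2 residual degrees of freedom. The fit with B6 outside the blocks was added after seeing the data. For the integrin genes both added the calls already given and ended none.

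Signs turned where differences were near 0. In Sf.Il2-/- against Sf, Itgb7 was 0.0865 with centred arrays, 0.0095 without Sf 1 and Sf.Il2-/- 2, and -0.11 to 0.12 with 1 array left out. Itgb1 was 0.12 without Sf 1 and Sf.Il2-/- 2 and -0.47 to 0.17 with 1 array left out, and Itgav was 0.017 with centred arrays and -0.25 to 0.15 with 1 array left out. In Sf against B6, quantile normalization gave 0.32 for Itgal and 0.0734 for Itgav, and averaging probe sets 0.22 for Itgav. The cause was not tested. Of 595 values for integrin genes and pairs under alternatives, 22 changed sign: 13 of 459 for tested genes, as above, 6 of 88 for chain pairs and 3 of 48 for Itga1, the last 9 by less than the replicate spread. Besides, 27 newly passed the threshold, 18 no longer passed, and 2 values of Itga1 moved by more than the spread. Few arrays, 1 of them for B6, limit all results, and Itga1 was too dim for a test.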

Other observations

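In Sf.Il2-/- against B6, 1 of 1 tested NK cell markers and 1 of 2 tested mast cell and basophil markers were called higher. Of all genes 1.49% were. Cpa3, the mast cell marker tested beside Kit, differed by -0.02. Among the tested markers of B cells, neutrophils, and monocytes and macrophages 0 passed. Eomes, a transcription factor of NK cells that some T cells also express, rose by 2.52 in Sf.Il2-/- (limma adjusted p = 0.0346) and passed in 13 of 16 alternatives, while Ncr1 and Klra8 of NK cells read under 5 in every array. Kit, the receptor of mast cell growth, rose by 2.16 (limma adjusted p = 0.0426) and passed in 10 of 16, while Mcpt8, Fcer1a and Ms4a2 read under 5 in every array. Against B6, Foxp3 fell by 2.96 in Sf.Il2-/- and Il2ra by 3.09, and both calls passed in all 16 alternatives run.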
